A study of Homo sapiens with 8 samples.

Results

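The mevalonate and squalene arm of cholesterol synthesis was examined in Panc 10.05, an established cell line from a human pancreatic ductal adenocarcinoma, as 9 genes chosen by their symbols (ACAT2, HMGCS1, MVK, PMVK, MVD, IDI1, FDPS, FDFT1 and SQLE) out of 58870 gene rows, of which 13860 had enough counts to be tested. All 9 passed that filter. RNA was sequenced from 8 libraries, 4 from Panc 10.05 control cells and 4 from Panc 10.05 cells carrying an ELAPOR1 transgene, which the labels also call ELAPOR1 overexpression. The labels name no promoter, vector, clone, selection, time in culture or batch, nor what the control cells carried, and they do not say that the replicates were separate cultures, so p-values measure only the spread between these libraries. ELAPOR1 encodes an endosome and lysosome associated membrane protein, and the title of the series names tumour subtype and metabolism as its subjects.

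The arm turns acetyl-CoA into squalene epoxide in the cytosol and endoplasmic reticulum. Its early steps make mevalonate, its middle steps make the isoprenoid building block isopentenyl diphosphate and join such blocks into farnesyl diphosphate, and its last steps commit farnesyl diphosphate to sterols. Farnesyl diphosphate also feeds protein prenylation, dolichol and coenzyme Q. Genes of the arm are textbook targets of the sterol-sensing transcription factor SREBP2, which is released from the endoplasmic reticulum when membrane cholesterol is low.

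The libraries held 16558600 to 18128757 counts in the control group and 13765509 to 17258166 in the ELAPOR1 group. ELAPOR1 itself was at 0.150 ± 0.107 CPM (counts per 1000000 counts, scaled between libraries by TMM) in control and 427 ± 2.28 CPM in ELAPOR1 libraries (SD over 4 libraries each), so every library matched its label. Of 6 ductal epithelial markers (KRT19, KRT7, KRT8, KRT18, EPCAM, CDH1) all were tested, with summed levels of 11900 to 13200 CPM in control and 11200 to 11500 CPM in ELAPOR1 libraries. Most of that sum was KRT8 and KRT18, which fell by 0.16 and 0.36 on the log2 scale (edgeR adjusted p = 9.3e-06 and 2.2e-12), while KRT7, KRT19 and CDH1 rose by 0.31, 0.25 and 0.11 (adjusted p = 6.5e-11, 3.4e-07 and 2.9e-03) and EPCAM did not pass the test (-0.03, adjusted p = 0.491). The 5 fibroblast markers summed to 2.83 to 4.27 CPM in control and 2.71 to 3.19 CPM in ELAPOR1 libraries, nearly all of it COL1A1, and the leukocyte and hepatocyte markers stayed at or below 0.635 and 0.488 CPM in every library. The 3 endothelial markers summed to 1.61 to 1.95 CPM in control and 0.576 to 0.865 CPM in ELAPOR1 libraries, nearly all of it VWF, while CDH5 had no count.

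In ELAPOR1 libraries 8 of the 9 genes fell, and PMVK was the exception. Of the 8, MVK fell by 22.7%, the least, and FDPS fell by 45.4%, the most. A gene was called when its edgeR p-value, adjusted over all 13860 tested genes, was under 0.05. Of all tested genes 44.7% were called, 22.1% lower and 22.6% higher. The CPM ranges of the groups did not overlap for the same 8 genes, all lower in ELAPOR1 libraries, against 19.3% of all tested genes that were lower without overlap and 20.0% that were higher. The median log2 fold change of the 9 genes was -0.68, beside 0.00088 over all tested genes. The 9 genes were chosen with earlier results of these data known, so these shares and medians are a description, not a test of the list. Summed over the 9 genes, the level went from 2267, 2324, 2247 and 2308 CPM in control to 1403, 1420, 1388 and 1424 CPM in ELAPOR1 libraries. As a share of all counts this was 0.223% to 0.230% in control and 0.140% to 0.143% in ELAPOR1 libraries.

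**Figure D1:**
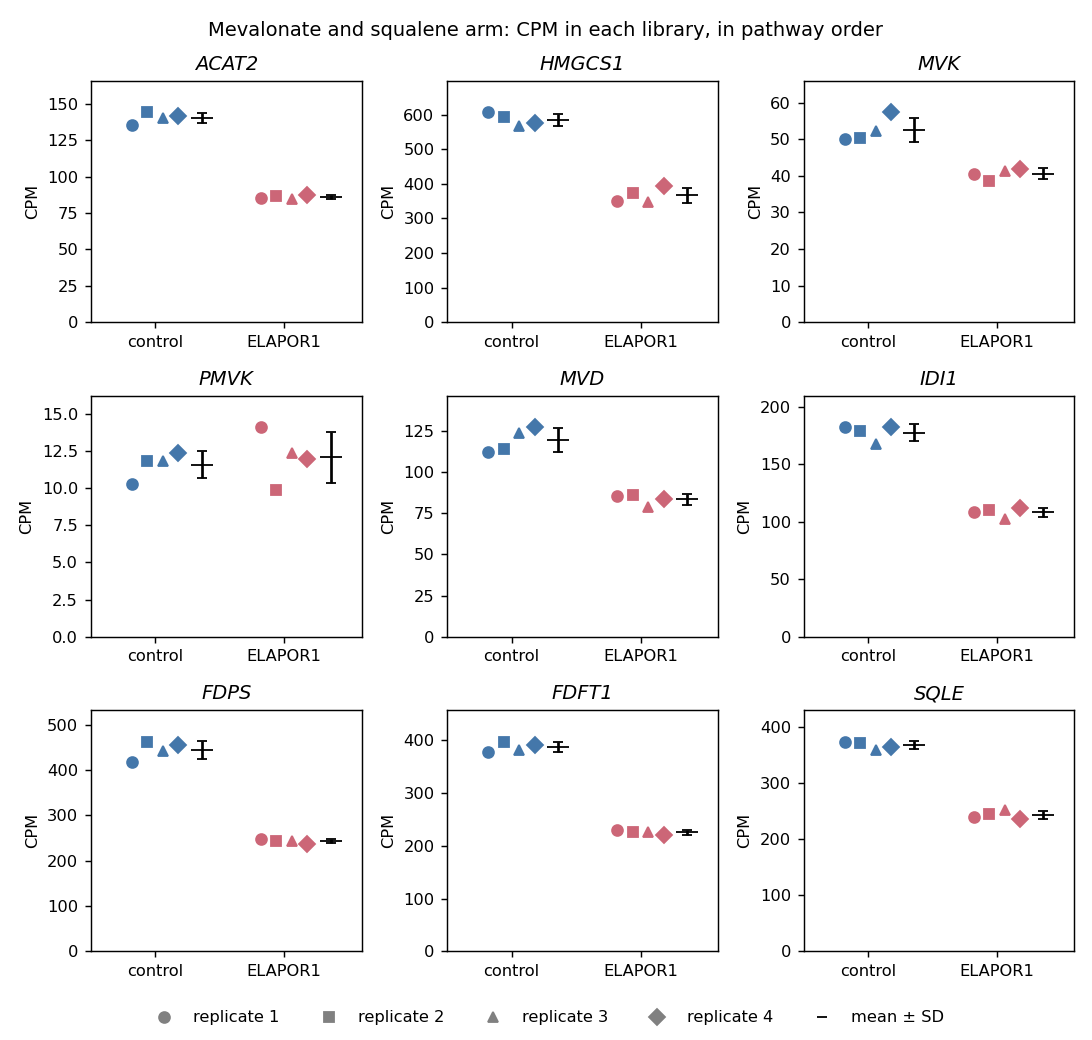
CPM (vertical axis, from 0) of each of the 9 genes in every library, with control libraries in blue and ELAPOR1 libraries in red, a marker shape for each replicate, and the mean ± SD in black. The groups are apart for 8 genes and overlap for PMVK, whose ELAPOR1 libraries span 9.91 to 14.1 CPM.

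The arm opens with ACAT2, the cytosolic thiolase that joins acetyl-CoA units into acetoacetyl-CoA. ACAT2 was at 135, 144, 140 and 142 CPM in control and 85.2, 87.1, 84.9 and 87.7 CPM in ELAPOR1 libraries. The groups were far apart and the ELAPOR1 libraries lay close together. ACAT2 fell by 0.70 on the log2 scale (edgeR, SE 0.0367, adjusted p = 4.4e-17), to 61.4% of the control level. Its mitochondrial isozyme ACAT1, which works in ketone body and isoleucine metabolism, went from 99.0 ± 2.69 to 92.7 ± 2.42 CPM (SD over 4 libraries each), with a log2 change of -0.09 (edgeR, SE 0.0388, adjusted p = 0.0462). That call for ACAT1 was lost with DESeq2 (adjusted p = 0.0638) and when any library but control replicate 1 was left out, at edgeR adjusted p-values of 0.0540 to 0.145.

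HMGCS1, the cytosolic HMG-CoA synthase, condenses acetoacetyl-CoA with another acetyl-CoA. It was at 607, 592, 568 and 575 CPM in control and 352, 373, 348 and 393 CPM in ELAPOR1 libraries. It was the member with the most counts in every library, and its highest ELAPOR1 library, replicate 4, was still well below the lowest control library. HMGCS1 fell by 0.68 on the log2 scale (edgeR, SE 0.0337, adjusted p = 1.5e-16), to 62.6% of control.

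MVK, PMVK and MVD act in turn on mevalonate: MVK and PMVK add phosphates, and MVD removes a carboxyl group to yield isopentenyl diphosphate. MVK was at 50.1, 50.5, 52.4 and 57.4 CPM in control and 40.5, 38.5, 41.4 and 41.9 CPM in ELAPOR1 libraries. The gap between its groups was narrower than for ACAT2 or HMGCS1, and no library crossed it. MVK fell by 0.37 on the log2 scale (edgeR, SE 0.0535, adjusted p = 6.1e-07), to 77.3% of control, the smallest fall among the 8.

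PMVK was at 10.3, 11.9, 11.9 and 12.4 CPM in control and 14.1, 9.91, 12.4 and 11.9 CPM in ELAPOR1 libraries. ELAPOR1 replicate 1 was the highest of the 8 libraries and ELAPOR1 replicate 2 the lowest, so the control range lay inside the ELAPOR1 range. Its log2 change of 0.06 had a wide error (edgeR, SE 0.101, adjusted p = 0.640), with a 95% interval from -0.13 to 0.26. That interval lies above the fold change of each of the other 8 genes. PMVK rests on 149 to 230 counts per library, the fewest of the 9 genes, and without ELAPOR1 replicate 1 its log2 fold change was -0.02.

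MVD was at 112, 114, 123 and 127 CPM in control and 85.5, 85.9, 78.5 and 83.8 CPM in ELAPOR1 libraries. The ranges were apart, with ELAPOR1 replicate 3 lowest. MVD fell by 0.51 on the log2 scale (edgeR, SE 0.0430, adjusted p = 6.9e-12), to 70.1% of control.

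IDI1 isomerises isopentenyl diphosphate to dimethylallyl diphosphate, the starter unit of isoprenoid chains. It was at 182, 179, 167 and 182 CPM in control and 108, 111, 103 and 112 CPM in ELAPOR1 libraries. Replicate 3 was the lowest library of each group, and the groups did not overlap. IDI1 fell by 0.71 on the log2 scale (edgeR, SE 0.0370, adjusted p = 3.7e-17), to 61.0% of control. Its paralogue IDI2 had no count in any library.

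FDPS builds farnesyl diphosphate, the branch point between sterols and the other isoprenoids. It was at 419, 463, 443 and 456 CPM in control and 249, 243, 243 and 237 CPM in ELAPOR1 libraries. Control replicate 1 was the lowest control library, yet it stood far above every ELAPOR1 library. FDPS fell by 0.87 on the log2 scale (edgeR, SE 0.0318, adjusted p = 3.0e-21), to 54.6% of control, the largest fall of the 9 genes. Reads of FDPS could in principle be divided with its processed pseudogenes, but the 8 FDPS pseudogenes in the annotation held 0 to 10 counts together in a library.

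FDFT1, squalene synthase, makes the first step that leads to sterols alone. It was at 378, 398, 382 and 392 CPM in control and 229, 226, 226 and 220 CPM in ELAPOR1 libraries. Both groups were tight and far apart. FDFT1 fell by 0.78 on the log2 scale (edgeR, SE 0.0298, adjusted p = 9.3e-21), to 58.2% of control.

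SQLE, squalene epoxidase, is an oxygen-dependent enzyme and a known control point of the late pathway. It was at 374, 372, 358 and 365 CPM in control and 240, 245, 252 and 236 CPM in ELAPOR1 libraries. The groups did not overlap. SQLE fell by 0.59 on the log2 scale (edgeR, SE 0.0301, adjusted p = 1.8e-17), to 66.2% of control.

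The falls were also tested against a set size, which does not compare the members with each other. In the edgeR test against a change of 1.5-fold, 4 of the 9 genes passed, namely ACAT2, IDI1, FDPS and FDFT1, against 0.657% of all tested genes that passed on the lower side. HMGCS1 (adjusted p = 0.0686) and MVK, MVD and SQLE (adjusted p = 1.0 each) did not pass it. The coefficient of variation between replicates was 1.94% to 7.95% in control and 1.61% to 14.3% in ELAPOR1 libraries, with PMVK the most variable gene in both groups. The medians over the 10703 tested genes that averaged 5 CPM or more were 5.42% and 4.57%.

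To compare members directly, the log2 ratio of counts of 2 genes was taken inside each library, which does not depend on scaling between libraries. The 8 ratios of neighbouring members were computed, plus ACAT2 over ACAT1 and FDFT1 over GGPS1, and the 10 p-values of the two-sided exact permutation test were adjusted together. In this test 4 against 4 libraries cannot give a p below 0.029, which becomes 0.0357 after adjustment. Of the 10 ratios, 8 reached it.

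HMGCS1 over MVK changed by -0.31 (SE 0.0774) and MVK over PMVK by -0.42 (SE 0.100) on the log2 scale. PMVK over MVD changed by 0.57 (SE 0.121) and MVD over IDI1 by 0.20 (SE 0.0612). These ratios share genes. Together they place MVK, PMVK and MVD nearer to their control levels than the members HMGCS1 and IDI1 (exact permutation adjusted p = 0.0357 for each ratio, n = 4 against 4 libraries). Further down, FDPS over FDFT1 changed by -0.09 (SE 0.0176) and FDFT1 over SQLE by -0.19 (SE 0.0278), with the same exact permutation p. FDPS thus lost more than FDFT1, and FDFT1 more than SQLE.

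ACAT2 over HMGCS1 differed by -0.03 (SE 0.0458, exact permutation adjusted p = 0.514), less than the spread between libraries. IDI1 over FDPS differed by 0.16 (SE 0.0557, exact permutation adjusted p = 0.0635), with control replicate 1 just inside the ELAPOR1 range; limma on the same ratios gave an adjusted p of 0.0184.

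The remaining ratios set a member against an isozyme or a branch. ACAT2 over ACAT1 was 0.507, 0.521, 0.503 and 0.483 in control and -0.118, -0.120, -0.0739 and -0.103 in ELAPOR1 libraries on the log2 scale, a change of -0.61 (SE 0.0133, exact permutation adjusted p = 0.0357). More ACAT2 than ACAT1 counts were thus present in every control library, and fewer in every ELAPOR1 library. Counts also depend on transcript length, so the sign of this ratio does not say which isozyme had more RNA. FDFT1 over GGPS1, the synthase of geranylgeranyl diphosphate, went from 3.21, 3.39, 3.25 and 3.26 to 2.90, 2.78, 2.74 and 2.68, a change of -0.50 (SE 0.0619, exact permutation adjusted p = 0.0357). GGPS1 itself fell from 39.98 ± 1.44 to 32.9 ± 1.62 CPM (SD over 4 libraries each, edgeR adjusted p = 1.3e-04), less than FDFT1.

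**Figure D2:**
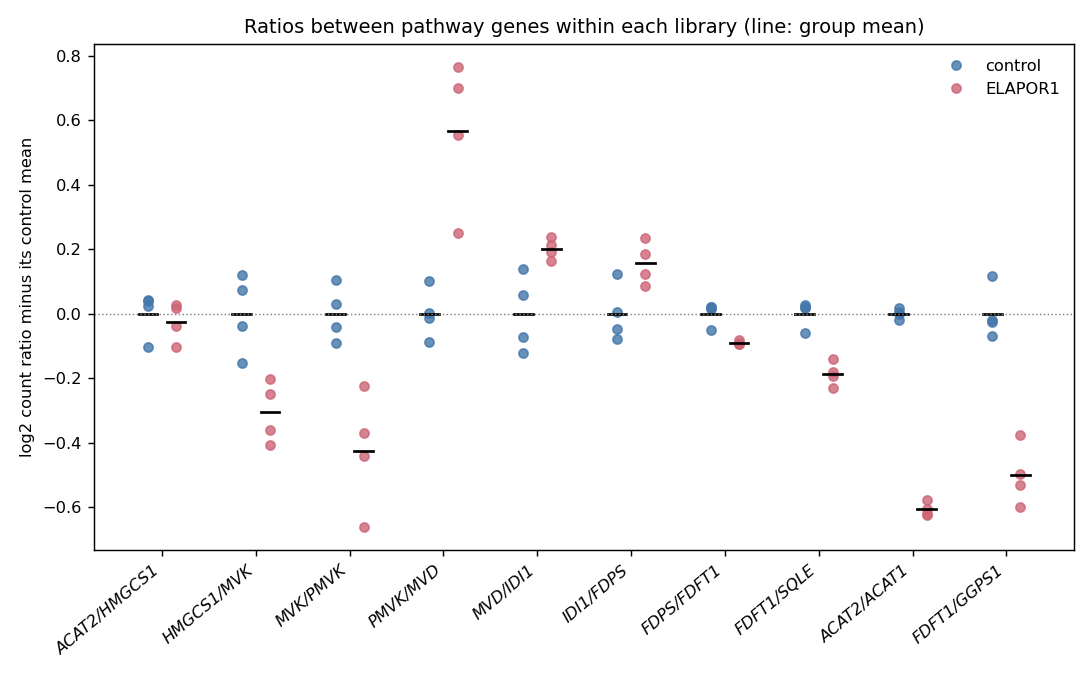
Log2 count ratio of 2 genes within each library minus the mean of that ratio over the control libraries (vertical axis), for 10 gene pairs, with control libraries in blue, ELAPOR1 libraries in red and group means as black lines. ACAT2 over HMGCS1 overlaps between groups, and ACAT2 over ACAT1 is shifted by -0.61.

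Levels can be compared between genes only per transcript length, here CPM per kb of the principal transcript in GENCODE release 29. On this scale the control levels were 301 ± 13.1 for FDPS, 167 ± 4.91 for HMGCS1, 146 ± 3.35 for FDFT1 and 124 ± 2.40 for SQLE (SD over 4 libraries each). MVD at 65.4 ± 3.96, IDI1 at 52.7 ± 2.10 and ACAT2 at 44.1 ± 1.17 came next. MVK at 19.1 ± 1.22 and PMVK at 9.05 ± 0.720 CPM per kb were lowest, so the kinase steps had the least RNA per length. Neighbours in this order did not overlap in control libraries. In ELAPOR1 libraries the order was the same, but FDFT1 (84.7 ± 1.43) and SQLE (82.1 ± 2.24) overlapped.

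The share of each gene in the summed CPM per kb of the 9 also shifted. FDPS made up 32.4 ± 0.865% in control and 29.1 ± 0.576% in ELAPOR1 libraries (SD over 4 libraries each). PMVK rose in share from 0.975 ± 0.0654% to 1.67 ± 0.241% while its own level did not pass the test, since the other members fell. HMGCS1 stood at 18.0 ± 0.709% and 18.5 ± 0.992%, within the spread between libraries.

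**Figure D3:**
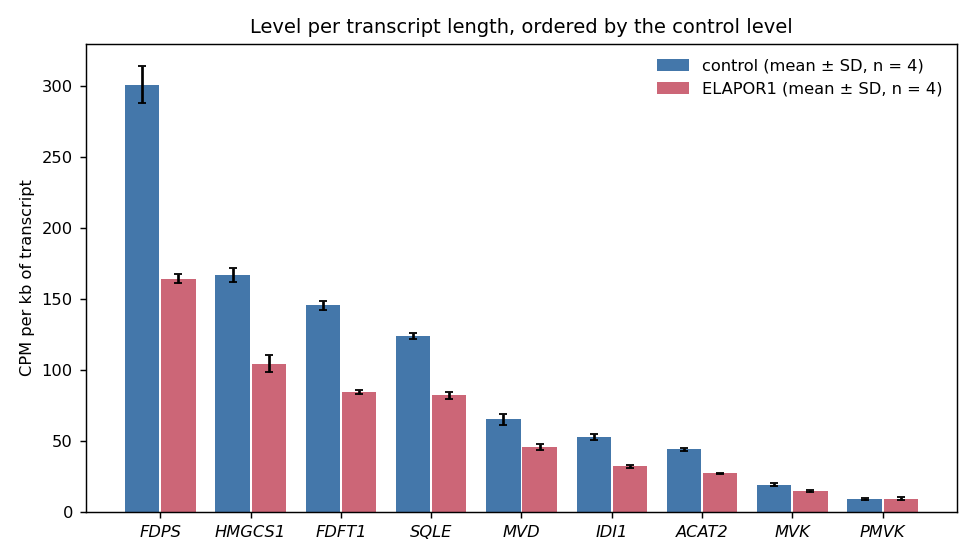
Level of each gene in CPM per kb of transcript (vertical axis, from 0) as bars of the mean with SD error bars over 4 libraries, control in blue and ELAPOR1 in red, ordered by the control level. FDPS is highest at 301 in control, and MVK and PMVK are lowest in both groups.

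The next steps of the pathway were compared by a list of 10 enzymes from lanosterol formation to cholesterol, chosen like all lists here with earlier results of these data known. In it 9 genes fell and LBR rose, beside 44.7% of all tested genes called and 22.1% called lower. The list had a median log2 fold change of -0.56. The largest falls were those of MSMO1, a sterol methyl oxidase (-0.77, edgeR adjusted p = 1.4e-21), HSD17B7, a ketoreductase (-0.76, adjusted p = 1.2e-12), and SC5D, a desaturase (-0.63, adjusted p = 5.0e-15). LSS, which closes squalene epoxide into lanosterol right after SQLE, went from 83.2 ± 2.18 to 56.6 ± 3.40 CPM (SD over 4 libraries each), with a log2 change of -0.56 (edgeR, SE 0.0459, adjusted p = 4.5e-12). LBR, a nuclear envelope protein that is also a sterol reductase, rose by 0.14 (edgeR adjusted p = 9.1e-04).

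Farnesyl and isopentenyl diphosphate are also used outside sterol synthesis. Of 18 tested genes of these branches 3 fell, 6 rose and 9 did not pass the test, with a median log2 fold change of -0.017, a share called near the 44.7% of all tested genes. The genes that fell were GGPS1 (-0.28) and the geranylgeranyl transferase subunits RABGGTB (-0.44, edgeR adjusted p = 1.4e-10) and RABGGTA (-0.41, adjusted p = 2.6e-06). Among those that rose most were SRD5A3, a reductase of dolichol synthesis (0.41, edgeR adjusted p = 2.1e-05), PDSS1, a subunit of the enzyme for the coenzyme Q side chain (0.39, adjusted p = 6.6e-03), and ZMPSTE24, the protease of prenylated lamin A (0.33, adjusted p = 3.6e-07). ICMT (0.26), DHDDS (0.23) and FNTB (0.22) rose by less. PDSS2, COQ2, NUS1, DOLK, FNTA, PGGT1B, PTAR1, RCE1 and TRIT1 did not pass the test, with log2 fold changes from -0.15 to 0.18.

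Of 6 genes that supply acetyl-CoA 3 fell and 3 did not pass the test, with a median log2 fold change of -0.058, beside 44.7% of all tested genes called and 22.1% called lower. ACSS2, which makes acetyl-CoA from acetate, fell by 0.79 (edgeR adjusted p = 5.3e-16), from 126 ± 7.23 to 73.0 ± 4.15 CPM (SD over 4 libraries each), and SLC25A1, the mitochondrial citrate carrier, fell by 0.66 (adjusted p = 5.0e-13). DLAT, of the pyruvate dehydrogenase complex, fell by 0.12 (edgeR adjusted p = 0.0112). ACLY, the citrate lyase of the same supply, was at 169 ± 6.5 and 176 ± 5.09 CPM (adjusted p = 0.130), and CS and PDHA1 had log2 fold changes of -0.00027 (adjusted p = 0.995) and 0.076 (adjusted p = 0.105).

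Of 14 genes for the sterol control of the arm 4 fell, 3 rose and 7 did not pass the test, with a median log2 fold change of -0.075, a share called near the 44.7% of all tested genes. INSIG1, which retains the SREBP complex in the endoplasmic reticulum and is itself an SREBP target, fell from 185 ± 7.14 to 112 ± 6.18 CPM (SD over 4 libraries each, -0.72, edgeR adjusted p = 8.0e-17). SREBF2, the gene of SREBP2, fell by 0.47 (edgeR adjusted p = 1.8e-14) and SREBF1 by 0.43 (adjusted p = 7.3e-10). RNF139, an endoplasmic reticulum ubiquitin ligase, fell by 0.14 (adjusted p = 0.0414). The genes that rose did so by at most 0.19, namely MBTPS2, a protease that releases SREBP (adjusted p = 6.7e-03), FAF2 (0.17, adjusted p = 2.3e-04) and VCP (0.15, adjusted p = 4.8e-05), which act in protein degradation from the endoplasmic reticulum. SCAP, the cholesterol sensor that escorts SREBP, was at 49.1 ± 2.15 and 46.4 ± 2.18 CPM (edgeR adjusted p = 0.195). The other genes that did not pass were INSIG2, MBTPS1, SPRING1, MARCHF6, UBE2G2 and USP20, and with SCAP they had log2 fold changes from -0.095 to 0.067.

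Of 6 genes around ketone body use, HMGCLL1 had no count. Of the 5 others 1 fell, 1 rose and 3 did not pass the test, a share called near the 44.7% of all tested genes. These 5 genes had a median change of -0.091 on the log2 scale. OXCT1, which activates acetoacetate, rose by 0.43 (edgeR adjusted p = 1.8e-03), and the gene that fell was ACAT1, given above. AACS, the cytosolic acetoacetyl-CoA synthetase, was at 63.9 ± 2.69 and 60.1 ± 3.58 CPM (SD over 4 libraries each, edgeR adjusted p = 0.130), and BDH1 and BDH2, enzymes of ketone body and related metabolism, had log2 fold changes of -0.34 (adjusted p = 0.344) and 0.30 (adjusted p = 0.247).

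**Figure D4:**
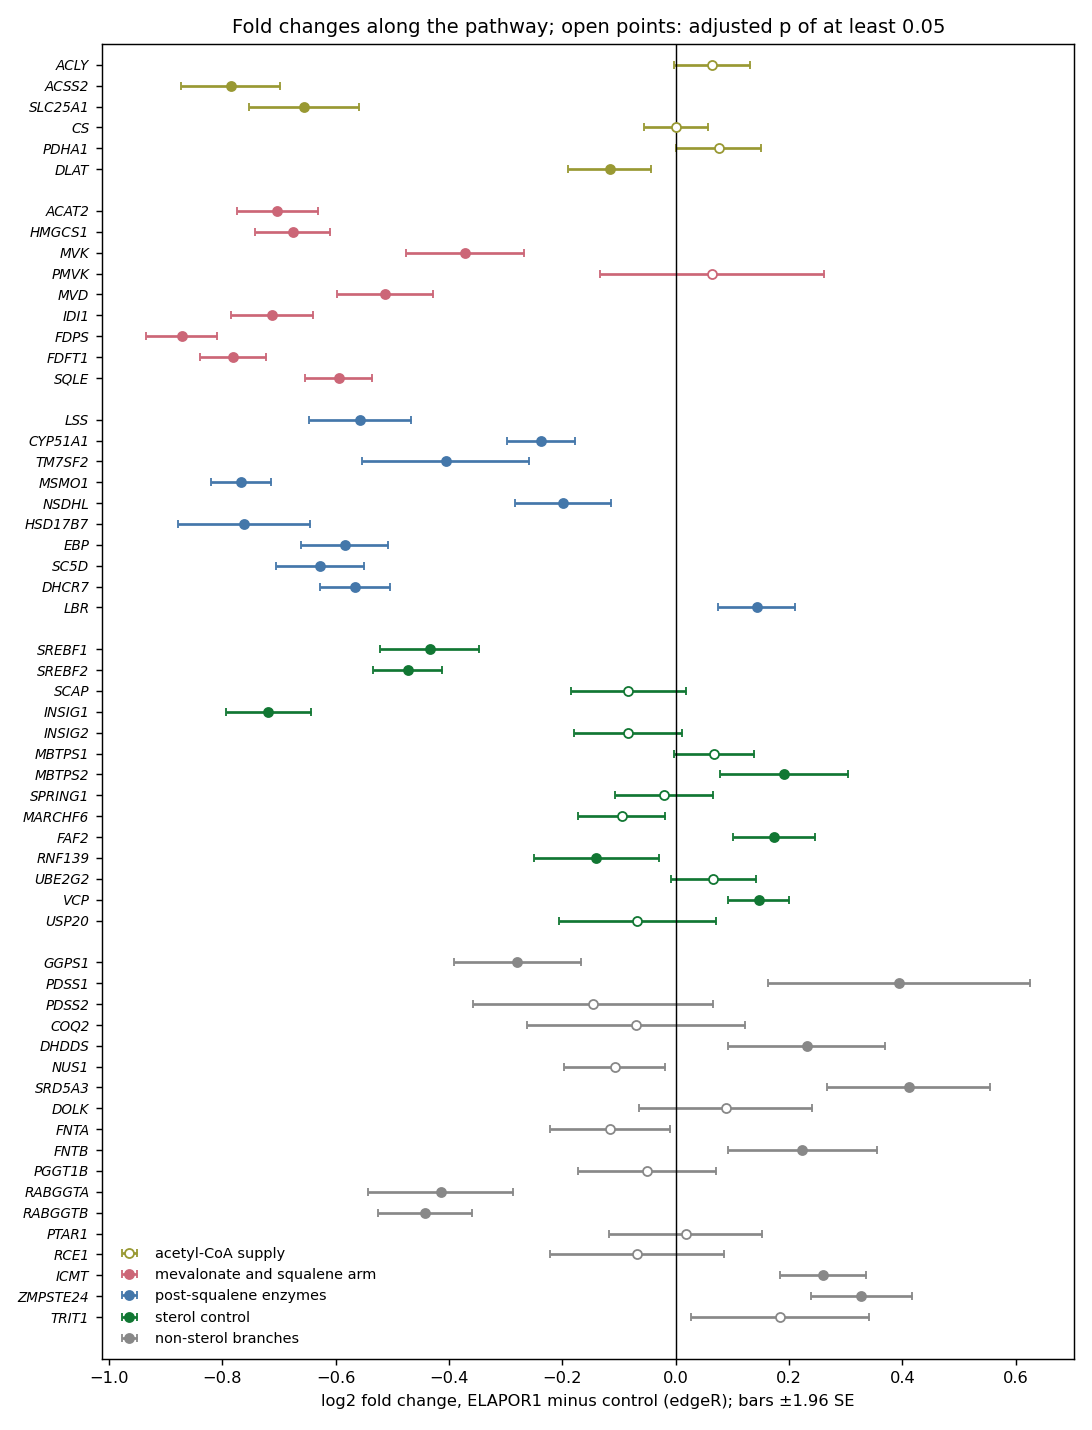
Log2 fold change of ELAPOR1 over control (horizontal axis) with bars of the 95% interval for the arm, in red, and the genes of acetyl-CoA supply, post-squalene enzymes, sterol control and non-sterol branches, in other colours; open points had an adjusted p of at least 0.05. The arm and the post-squalene enzymes lie mostly left of 0, and the branch genes lie on both sides.

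Promoter sequences are shown for 4 genes of the arm that fell together, because the data bear on genes that share a direction. RefSeq promoter windows on GRCh38.p14 were matched for 6 of the 9 genes (HMGCS1, MVK, PMVK, MVD, IDI1 and FDPS, 9 windows in all) and for ACAT2, FDFT1 and SQLE none was used here. In the 250 bases before each start 4 motifs were searched on both strands: TCACNCCAC (sterol regulatory element type), CCAAT (bound by NF-Y), GGGCGG (Sp1) and CACGTG (E-box). In the printed stretches no match overlaps another, and windows of the same gene can share bases. Stretches that are annotated as untranslated region of any transcript were left out, which left nothing to print for MVK and PMVK. Each is written from 5′ to 3′ on the strand of the gene, with CCAAT or GGGCGG, or the same motif read on the other strand, in capitals. They lie at chr5:43313513-43313662 for HMGCS1, chr16:88663111-88663341 for MVD and chr10:1049171-1049369 for IDI1, all on the minus strand (the last bases of the MVD stretch lie inside the annotated gene), and at chr1:155308616-155308747 on the plus strand for FDPS.
HMGCS1: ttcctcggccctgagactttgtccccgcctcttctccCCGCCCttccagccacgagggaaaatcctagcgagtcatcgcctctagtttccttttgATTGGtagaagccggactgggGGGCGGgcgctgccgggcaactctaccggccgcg
MVD: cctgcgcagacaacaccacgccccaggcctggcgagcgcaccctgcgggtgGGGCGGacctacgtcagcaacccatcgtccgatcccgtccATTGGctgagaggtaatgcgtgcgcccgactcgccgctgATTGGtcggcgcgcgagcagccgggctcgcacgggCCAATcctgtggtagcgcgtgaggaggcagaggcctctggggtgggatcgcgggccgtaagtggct
IDI1: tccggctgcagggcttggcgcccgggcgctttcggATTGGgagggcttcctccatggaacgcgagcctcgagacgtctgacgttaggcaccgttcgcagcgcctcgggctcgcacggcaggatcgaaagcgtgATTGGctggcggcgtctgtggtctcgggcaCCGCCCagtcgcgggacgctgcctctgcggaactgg
FDPS: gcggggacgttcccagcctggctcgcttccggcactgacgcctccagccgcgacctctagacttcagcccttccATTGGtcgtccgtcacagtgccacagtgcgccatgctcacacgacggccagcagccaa

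The printed stretch of MVD holds 3 CCAAT motifs and that of IDI1 holds 2. HMGCS1 and IDI1 had further windows with stretches that are not printed. Of these, the HMGCS1 window from 43313132 and the IDI1 window from 1056655 held no CCAAT. Over the full 250 bases CCAAT was present for 5 of the 6 genes, all but PMVK, and in 6 of 9 windows, against 32.0% of 35116 RefSeq windows of that length. The only PMVK window, at 154936670 to 154936969, lies inside the annotated gene, as does the only MVK window. For PMVK and MVK no base upstream of the annotated gene was searched, so the lack of CCAAT for PMVK concerns that window alone. Some windows of HMGCS1 and IDI1 also lie inside the gene. GGGCGG was present in all 9 windows, against 42.6%, and CACGTG in none, against 6.34%. The member windows held from 58.4% (MVK) to 74.0% (IDI1 window from 1056655) of G and C bases. The shares over all windows were not matched for base content. TCACNCCAC was in none of the 9 windows and in 0.883% of all windows, which says only that these letters are not in these windows. A match is a description of letters, and binding was not measured.

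Chromosomal neighbours were listed because counts without stated strand can be shared with an overlapping gene. In ACAT2, 397 exon bases are shared with TCP1, a chaperonin gene on the other strand, which was at 227 ± 4.36 and 221 ± 4.46 CPM (SD over 4 libraries each, log2 fold change -0.04, edgeR adjusted p = 0.291). TCP1 did not pass the test beside the fall of ACAT2. The entries of SOD2 and SOD2-OT1 that also overlap ACAT2 from the other strand held at most 3.78 and 9 counts in a library. These entries were matched by gene identifier, and other entries of the same symbols were not looked up. FDPS shares 693 exon bases with RUSC1-AS1, which had at most 47 counts in a library and a log2 fold change of 0.53 (edgeR, SE 0.227, adjusted p = 0.0578). The untested genes that overlap HMGCS1, IDI1 and FDFT1 had at most 8 counts in a library.

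MVK shares 306 exon bases with MMAB, an enzyme of cobalamin metabolism that starts in the opposite direction next to it. MMAB was at 73.4 ± 5.74 CPM in control and 42.3 ± 3.71 CPM in ELAPOR1 libraries (SD over 4 libraries each) and fell by 0.79 (edgeR, SE 0.0590, adjusted p = 1.2e-11), more than MVK. How far shared reads enter the fall of MVK was not tested.

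Of the 18 nearest tested genes on either side of the members 3 fell, 5 rose and 10 did not pass the test, a share called like the 44.7% of all tested genes. The genes that fell were PBXIP1 beside PMVK (-0.60, edgeR adjusted p = 9.6e-07), HCN3 near FDPS (-0.24, adjusted p = 6.8e-03) and CYBA beside MVD (-0.10, adjusted p = 0.0468). The genes that rose were FAM222A, ADAR, RUSC1, CCL28 and GTPBP4. FAM222A lies 116111 bases from MVK (1.68, edgeR adjusted p = 1.4e-05) and ADAR 296721 bases from PMVK (0.34, adjusted p = 4.6e-11). RUSC1 lies 230 bases beyond the end of FDPS (0.24, edgeR adjusted p = 9.8e-05). CCL28 lies 63133 bases from HMGCS1 (0.22, edgeR adjusted p = 0.0445) and GTPBP4 19216 bases from IDI1 (0.14, adjusted p = 7.1e-03). FAM222A had at most 44 counts in a library. WASHC5 beside SQLE and CTSB beside FDFT1 had log2 fold changes of -0.01 (adjusted p = 0.789) and 0.04 (adjusted p = 0.539).

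**Figure D5:**
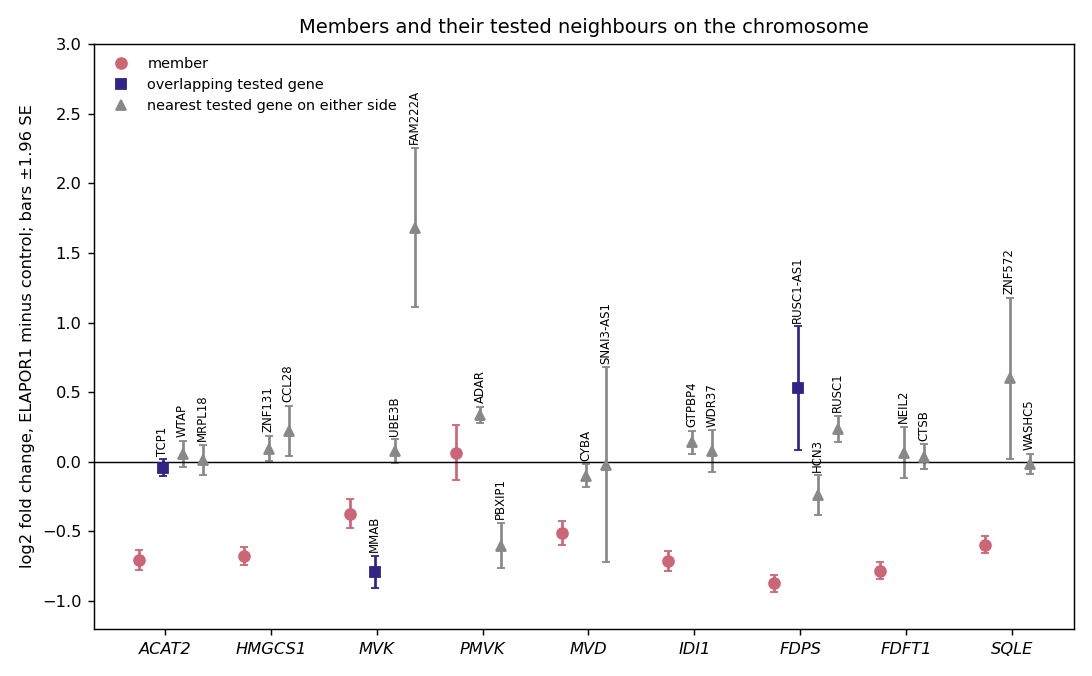
Log2 fold change of ELAPOR1 over control with bars of the 95% interval (vertical axis) for each member, as red circles, the tested genes that overlap it, as dark squares, and the nearest tested gene on either side, as grey triangles. Around the 8 members that fell, MMAB is the neighbour that fell most.

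In GRCh38 coordinates of GENCODE release 29 the genes lie on 7 chromosomes. FDPS (ENSG00000160752.14) is at 155308748 to 155320666 and PMVK (ENSG00000163344.6) at 154924734 to 154936991 on chromosome 1. HMGCS1 (ENSG00000112972.15) is at 43289395 to 43313512 on chromosome 5, ACAT2 (ENSG00000120437.8) at 159760328 to 159779055 on chromosome 6, and IDI1 (ENSG00000067064.11) at 1039152 to 1049170 on chromosome 10. MVK (ENSG00000110921.14) is at 109573255 to 109598117 on chromosome 12 and MVD (ENSG00000167508.12) at 88651935 to 88663161 on chromosome 16. FDFT1 (ENSG00000079459.13) at 11795573 to 11839309 and SQLE (ENSG00000104549.12) at 124998497 to 125022283 are on opposite arms of chromosome 8.

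Across the 8 libraries the level of each member was set against the mean of the other members, on standardised log2(CPM + 1). Pearson's r was 0.952 to 0.990 for 8 members and -0.158 for PMVK, a description over 8 libraries that share the group difference. Among 10694 other tested genes that averaged 5 CPM or more, the 5 with the pattern most like the mean of the 9 members were CD99 (r = 0.998), TPT1 (0.998), PIM1 (0.997), RPS6 (0.997) and ZNF706 (0.997). CD99, a surface glycoprotein, is listed under a second entry with the same values, and reads of TPT1 and of the ribosomal protein gene RPS6 can be shared with processed pseudogenes. PIM1, a serine/threonine kinase, fell from 70.9 ± 2.98 to 38.9 ± 2.26 CPM (SD over 4 libraries each, -0.86, edgeR adjusted p = 1.1e-15).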

How the data were processed

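The authors deposited 1 table of expected counts per gene and library, without scaling between libraries. The submitters' processing notes name cutadapt, STAR, RSEM, DESeq2 and the build hg38, without versions, roles or order; which annotation was used, and whether strand was, is not given in the sources used here. Of the nonzero values 15.0% were not whole, but all counts of the 9 members were. Expected counts were rounded, and the test was that of edgeR 4.0.16 under R 4.3.3 (filterByExpr, TMM, robust quasi-likelihood, two-sided), with Benjamini-Hochberg adjustment over 13860 genes. SE is the log2 fold change divided by the square root of F, and CPM are counts per 1000000 scaled by TMM. Ratios used a pseudocount of 0.5 and the exact permutation test of scipy 1.17.1. The code was tested on simulated data. Gene identifiers of the members were matched to GENCODE release 29 without their version number, since 3 of 9 had the same version there.

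The members and lists were chosen with earlier results of these data known. The named genes are the members, isozymes, neighbours, the 5 genes most alike, and in each list the called genes up to 6, otherwise the 3 largest in each direction; some further genes that the rule names are not reported here and were left out of the lists and their counts. DESeq2 1.42.0, limma 3.58.1, other scalings and filters, a replicate block, left-out libraries, an adjusted p under 0.01 and a 1.5-fold test (glmTreat) were the alternatives.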

Additional observations from a re-analysis of the deposited data

Results flagged for a closer look

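For 3 of the ratios between genes, control replicate 1 lay far from the other control libraries: its gap to the nearest of them, relative to the range of the group, passed Dixon's 95% critical value. The log2 ratio of ACAT2 over HMGCS1 was -2.16 there and -2.04 to -2.02 in the other control libraries. That of FDPS over FDFT1 was 0.147 there and 0.212 to 0.218 in the others, and that of FDFT1 over SQLE was 0.0162 there and 0.0932 to 0.103 in the others. In all, 40 groups of 4 libraries were examined (CPM of the members, their sum, and the ratios), and chance alone flags about 1 in 20 groups, here 2. The ratios share genes, so these are not separate events. Without control replicate 1, the differences between groups were -0.06 for ACAT2 over HMGCS1, -0.11 for FDPS over FDFT1 and -0.21 for FDFT1 over SQLE, and the same 8 members were called.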

How the results depend on the processing

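The same 8 members were called lower under 18 of 19 alternatives. Only testing for a change beyond 1.5-fold differed: it called 4 members and lost HMGCS1 (-0.68), MVK (-0.37), MVD (-0.51) and SQLE (-0.59), and called 2 post-squalene enzymes, 0 genes of non-sterol branches, 1 of acetyl-CoA supply, 1 of sterol control and 0 of ketone body use, since it asks for a larger change; over all 13860 genes it called 215 against 6193 for edgeR's test of any change. Total count scaling called 5 genes of acetyl-CoA supply, and limma moved the ratio of IDI1 over FDPS (0.16) past the threshold; the cause was not tested. Of the 2 calls around ketone body use, 1 was left under total count scaling, DESeq2, no filter, the replicate block and the 0.01 threshold, where ACAT1 was lost. Leaving out each library in turn gave medians of the members from -0.71 (without ELAPOR1 replicate 4) to -0.65 and summed differences from -892 to -867 CPM. The log2 fold change of PMVK was -0.020 (without ELAPOR1 replicate 1) to 0.15 and the difference of ACAT2 over HMGCS1 -0.060 to 0.0012 (without ELAPOR1 replicate 4), both turning sign. Calls then numbered 6 to 9 for sterol control, 1 to 3 for ketone body use and 3 to 4 for acetyl-CoA supply. With 1 library left out, the permutation test of ratios cannot reach the threshold, so only values were compared. The replicate number used as a block (replicate block) called the same 8 members, with a median of -0.68, and apart from ACAT1 changed no count of calls by over 1.5 times. The numbers do not pair the libraries by their labels: deviations of same-numbered libraries correlated at -0.112 to 0.0355. Depth limits PMVK most, at 149 to 230 counts per library.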
